A study of Mus musculus with 80 samples.

Results

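The cerebellins (Cbln1, Cbln2, Cbln3 and Cbln4) and the C1q-like genes (C1ql1, C1ql2 and C1ql3) were followed by name through 5 regions of the adult female mouse brain. These 7 genes were taken from a count table of 27179 genes, and 7 of 7 were among the 13016 genes kept by the expression filter, which asks for 5 CPM or more (counts scaled to the library's total) in no fewer than 8 libraries. RNA-seq libraries came from 8 virgin (V) and 8 primiparous (P) females, the latter having raised a single litter. From the same animals the cerebellum (Cer), cortex (Ctx), hypothalamus (Hypo), amygdala (Amy) and hippocampus (Hippo) were sequenced, and 77 of the 80 labelled libraries are in the table. The animals were C57BL/6 mice by the labels (C57BL/6J by the study's methods), born within days of each other and kept in 1 room. A primiparous female was paired at 8 weeks of age with a male for 2 weeks, and the labels put tissue collection at 3 weeks after weaning, while the study's methods give a longer interval. Virgin females were group-housed and met no male, so birth and care of pups cannot be told apart from mating, male contact and housing. The whole hypothalamus was used, against the left side only of the other regions. The libraries of a region were sequenced as 1 pool, so a region and its sequencing pool cannot be told apart.

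Cerebellins and C1q-like proteins are secreted proteins that end in a globular C1q domain, through which they assemble into trimers and larger complexes in the synaptic cleft. Cerebellins join neurexins on the axon terminal to the glutamate receptor-like GluD proteins on the other side, and are best known from the synapses of cerebellar granule cells on Purkinje cells. C1q-like proteins bind the adhesion receptor BAI3 (Adgrb3), and some of them also kainate receptors. They are known from climbing fibres in the cerebellum and mossy fibres in the hippocampus.

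Sequencing depth, as the total count of a library, ranged from 7959192 to 23352639 in hypothalamus (n = 16), from 11248560 to 19628734 in amygdala (n = 15), from 14404113 to 37871854 in hippocampus (n = 15), from 8678050 to 31391961 in cortex (n = 16) and from 8702483 to 29090360 in cerebellum (n = 15). The tissue labels were checked against markers. The 5 granule cell and the 5 Purkinje cell markers were each highest in cerebellum, the 5 cortical markers in cortex and the 6 hypothalamic markers in hypothalamus, while 3 of 4 dentate granule cell markers were highest in hippocampus and 2 of 3 amygdala markers in amygdala. The olfactory bulb list was highest in cortex and the striatal list in amygdala, each with 3 of 5 markers highest there. Across cortex libraries the olfactory bulb sum ran from 37.3 to 283 CPM in virgin and from 9.19 to 366 CPM in primiparous females. The part of olfactory bulb or striatal tissue in the levels of the members was not tested. Libraries in which a member lay far from its group are listed at the end, and the most extreme was in hippocampus. The hippocampus library of primiparous animal 413 held 54.3 CPM of the granule cell gene Gabra6, against 0.117 to 1.77 CPM in the other 14 hippocampus libraries, and the hippocampal levels and differences of Cbln1 and Cbln3 are therefore given with and without it. The tissue was bulk, so fewer cells of a type and less RNA per cell cannot be told apart.

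Among the 4 members with a promoter used here, base composition differed. The bases upstream of C1ql2 and Cbln3 are shown 5′ to 3′ from RefSeq on GRCm38.p6, with CG dinucleotides in capitals, because the former lies in a CG-rich and the latter in a CG-poor stretch. The C1ql2 sequence covers chr1:120340332-120340581 on the + strand, and the Cbln3 sequence covers chr14:55884393-55884506 on the - strand, which ends where the longer GENCODE M21 gene model begins.
C1ql2: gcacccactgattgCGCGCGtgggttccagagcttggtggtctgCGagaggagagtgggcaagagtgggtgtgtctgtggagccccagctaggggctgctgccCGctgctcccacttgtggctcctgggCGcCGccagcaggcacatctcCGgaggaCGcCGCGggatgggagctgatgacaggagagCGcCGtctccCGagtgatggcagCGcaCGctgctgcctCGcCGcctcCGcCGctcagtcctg
Cbln3: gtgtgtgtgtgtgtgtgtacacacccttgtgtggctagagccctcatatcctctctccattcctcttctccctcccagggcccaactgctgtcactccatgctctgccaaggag
In the 250 bases before the RefSeq start, C1ql2 had 20 CG dinucleotides, a count reached by 17.9% of 32851 promoters in the table, and Cbln3 had 2, reached by 81.2%. C1ql3 had 23, in a window that lies inside its longer GENCODE M21 gene model, and Cbln4 had 11. The median over all promoters was 6. The letters TATAAA, searched on both strands, were in none of these 4 windows and in 12.4% of all windows. These counts are descriptions of the reference sequence.

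Each member had its own order of regions. Levels of 1 gene were compared between regions in CPM, and differences were tested with edgeR over all 13016 genes in 1 fit of the 10 groups of region and state. Between regions, 58.7% (amygdala against hippocampus) to 81.1% (hypothalamus against cerebellum) of all genes passed an adjusted p of 0.05, so a regional difference by itself does not set a member apart. Of the 7 members, 7 differed between cerebellum and hypothalamus, 7 between cerebellum and amygdala (80.2% of all genes), 7 between cerebellum and hippocampus (78.7%) and 7 between cerebellum and cortex (79.9%). Hypothalamus differed from hippocampus in 7 (73% of all genes), from amygdala in 5 (71%) and from cortex in 5 (77.7%). Cortex differed from hippocampus in 6 (67%) and from amygdala in 6 (62.5%), and amygdala from hippocampus in 4. Without the hippocampus library of animal 413 the counts were 6 for hypothalamus against hippocampus, 3 for amygdala against hippocampus and 7 for amygdala against cortex, and those of the other pairs were as before. When the 5 regions were ranked for each member, 20 of the 28 pairs of neighbours in rank differed. Cbln1, Cbln3, Cbln4 and C1ql2 were each highest in 1 region above the other 4.

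**Figure D1:**
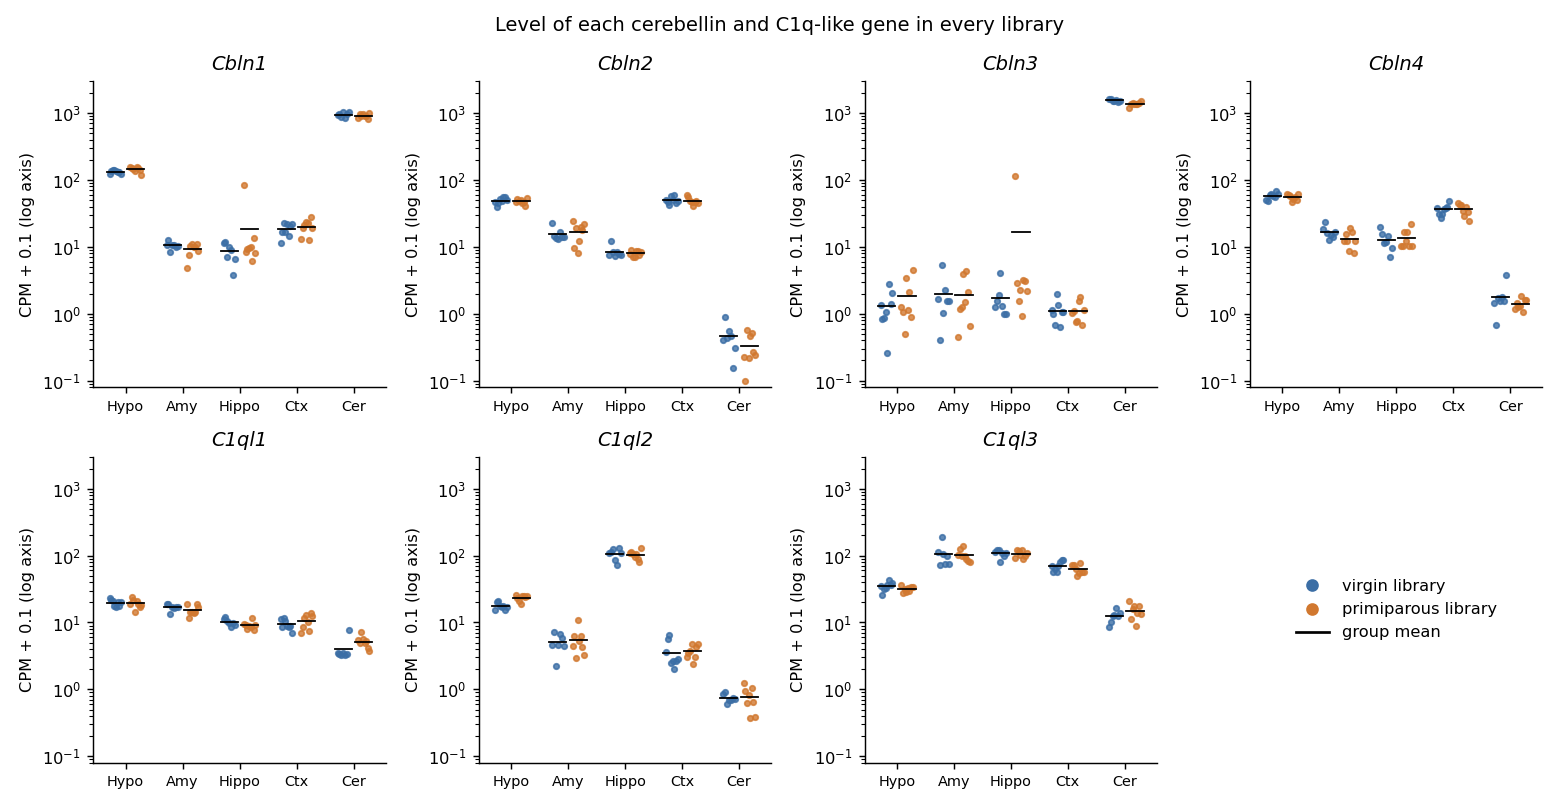
Level of each member in every library, as CPM + 0.1 on a log axis, by region and reproductive state (blue, virgin; orange, primiparous), with the group mean as a black line. Cbln1 and Cbln3 are highest in cerebellum, C1ql2 in hippocampus, and 1 primiparous hippocampus library (animal 413) lies far above its group for Cbln1 (83.4 CPM) and Cbln3 (115 CPM).

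Cbln1, the founding cerebellin, lies at chr8:87468405-87472609 on the - strand (GRCm38, GENCODE M21). In cerebellum it ranged from 822 to 1042 CPM with a median of 924 (928 ± 69.5, mean ± SD, n = 15). Hypothalamus was next, with a lowest library of 117, a median of 138 and a highest of 158 CPM. No library of cortex, hippocampus or amygdala reached the hypothalamic range. Cortex followed at 19 ± 4.54 CPM (n = 16), and amygdala had 9.73 ± 1.85 CPM (n = 15). Hippocampus had 13.8 ± 19.4 CPM (n = 15), or 8.8 ± 2.53 CPM without animal 413 (n = 14). Cerebellum was above hypothalamus by a log2 difference of 2.76 (SE 0.185, edgeR adjusted p = 2.77e-22), and hypothalamus above cortex by 2.75 (SE 0.191, adjusted p = 2.04e-21). Hippocampus and amygdala did not differ beyond their spread (log2 difference 0.33, SE 0.214, adjusted p = 0.185), and without animal 413 the sign turned (-0.17, adjusted p = 0.184).

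Cbln3, whose protein is known to leave the cell only together with Cbln1, lies at chr14:55878913-55884392 on the - strand. Its spread over the 77 libraries was the widest of the 7 members (root mean square 3.21 on centred log2(CPM + 4)). The lowest cerebellar library had 1204 CPM, the median 1470 and the highest 1629 (1454 ± 114, n = 15). Mean levels were 1.85 ± 1.46 CPM in amygdala, 1.49 ± 1.12 in hypothalamus and 1 ± 0.391 in cortex, with 2 to 85 counts per hypothalamic library. Hippocampus had 9.42 ± 29.1 CPM, and 1.91 ± 0.965 without animal 413. The log2 difference between cerebellum and the next region, hippocampus, was 8.05 (SE 0.446, adjusted p = 1.21e-26), and 9.49 without that library. Amygdala and hypothalamus, and hypothalamus and cortex, did not differ beyond their spread (adjusted p = 0.594 and 0.496). Hippocampus lay above amygdala by 1.48 (adjusted p = 0.0168), and this call was lost with the animal as a replicate block (0.79, adjusted p = 0.182) and without animal 413 (0.04, adjusted p = 0.912).

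Cbln2 and Cbln4 shared the opposite pattern, with their lowest levels in cerebellum. Cbln2, which binds neurexins and GluD receptors in forebrain synapses, lies at chr18:86711110-86718283 on the + strand. It had 49.4 ± 5.79 CPM in cortex and 48.4 ± 4.74 in hypothalamus, which did not differ beyond their spread (log2 difference 0.15, SE 0.0903, adjusted p = 0.124). Levels were 16 ± 4.76 CPM in amygdala and 8.09 ± 1.19 in hippocampus, each below the region before it (adjusted p = 2.33e-23 and 2.20e-13). Cerebellum had 0 to 9 counts per library, 71 in all 15, and 0.286 ± 0.204 CPM. The 1 library with 0 counts allows up to 0.103 CPM by a floor of 3 counts, which covers counting error only. Hippocampus was above cerebellum by 5.11 on the log2 scale (SE 0.174, adjusted p = 7.89e-42).

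Cbln4, which also binds the netrin receptor Dcc and its relative neogenin, lies at chr2:172036233-172043466 on the - strand. Hypothalamus was highest, from 47.2 to 68.3 CPM with a median of 57. Cortex ranged from 23.9 to 47.6 CPM with a median of 37.1, so that both ranges met only at their ends (log2 difference 0.53, SE 0.11, adjusted p = 1.47e-05). Amygdala (14.7 ± 3.99 CPM) and hippocampus (13.1 ± 4.17 CPM) did not differ beyond their spread (adjusted p = 0.221), and cerebellum had 1.48 ± 0.691 CPM. Across the 77 libraries, the kept gene most like Cbln2 was Cbln4, and the gene most like Cbln4 was Cbln2. Their root mean square difference was 0.434 on centred log2(CPM + 4), against 1.38 and 1.22 for the spread of each gene itself.

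C1ql2, a mossy fibre protein of dentate granule cells, lies at chr1:120340582-120343174 on the + strand. In hippocampus its lowest library had 71.6 CPM, its median 110 and its highest 129 (105 ± 17.5, n = 15). Hypothalamus followed with 15.3 to 25.8 CPM and a median of 20.4. The remaining regions had 5.2 ± 2.11 CPM (amygdala), 3.53 ± 1.25 (cortex) and 0.653 ± 0.23 (cerebellum), and all 4 steps down this order passed the test. The first step was 2.51 on the log2 scale (SE 0.115, adjusted p = 2.28e-32). Beside it, dentate granule cell markers summed to 209 CPM in hippocampus and 36.6 CPM in the next region, cerebellum.

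C1ql3, which shares receptors with C1ql2 and is known more widely in forebrain, lies at chr2:13003457-13011806 on the - strand. Hippocampus (106 ± 13.6 CPM) and amygdala (103 ± 30.7 CPM) did not differ beyond their spread (log2 difference 0.05, SE 0.0987, adjusted p = 0.694). The amygdala values ranged from 71.5 to 190 CPM, a wider range than the 79.4 to 122 CPM of hippocampus. Cortex had 66.7 ± 11.2 CPM, hypothalamus 33.4 ± 4.43 and cerebellum 13.7 ± 3.42, each below the region before it (adjusted p = 2.28e-08, 9.60e-17 and 3.78e-18).

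C1ql1, known from the inferior olive neurons that send climbing fibres to the cerebellum, lies at chr11:102939264-102946688 on the - strand. Its spread over the 77 libraries was the narrowest of the 7 (0.54 on the same scale). Its levels were 19.4 ± 2.58 CPM in hypothalamus and 16 ± 2.33 in amygdala, which did not differ beyond their spread (adjusted p = 0.159), and 9.84 ± 2.16 in cortex and 9.49 ± 1.25 in hippocampus, for which the same held (adjusted p = 0.912). Cerebellum was lowest at 4.55 ± 1.44 CPM, below hippocampus by 1.22 (SE 0.0999, adjusted p = 4.92e-19). Cbln1, C1ql1 and C1ql3 each overlap an annotated gene on the opposite strand, and how the counting treated strand is not stated in the sources used here.

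Levels of different members were compared only per length, as CPM divided by the exon length in kilobases (RPKM), with the SD over libraries. The 4 cerebellins together reached 605 ± 38.2 RPKM in cerebellum, 81.9 ± 4.27 in hypothalamus, 36 ± 3.39 in cortex, 14.2 ± 2.08 in amygdala and 13.8 ± 12.2 in hippocampus (10.7 ± 2.31 without animal 413, n = 14). By this measure the cerebellar sum consisted of Cbln1 (50.5% ± 2.21) and Cbln3 (49.4% ± 2.21) in nearly equal shares. The CPM of Cbln3 was higher, and so was the exon length used (4.87 kb against 3.04 kb). That length joins the exons of all GENCODE M21 transcripts of a gene, and for Cbln3 it takes in most of the gene. By the study's methods, reads were counted on a different annotation, so the split between both genes depends on the length used. Cbln1 gave 55.5% ± 3.46 of the hypothalamic sum, and Cbln2 gave 47.6% ± 3.8 of the cortical sum. The 3 C1q-like genes together were highest in hippocampus (101 ± 12.3 RPKM) and lowest in cerebellum (8.8 ± 1.94 RPKM). In hippocampus C1ql2 gave 51.8% ± 3.97 and C1ql3 41.8% ± 3.97 of that sum. C1ql3 gave 74.2% ± 6.15 of the sum in amygdala and 75.3% ± 6.64 in cortex. In hypothalamus the sum was shared by C1ql1 (36% ± 3.77), C1ql3 (36% ± 4.56) and C1ql2 (28% ± 4.39).

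**Figure D2:**
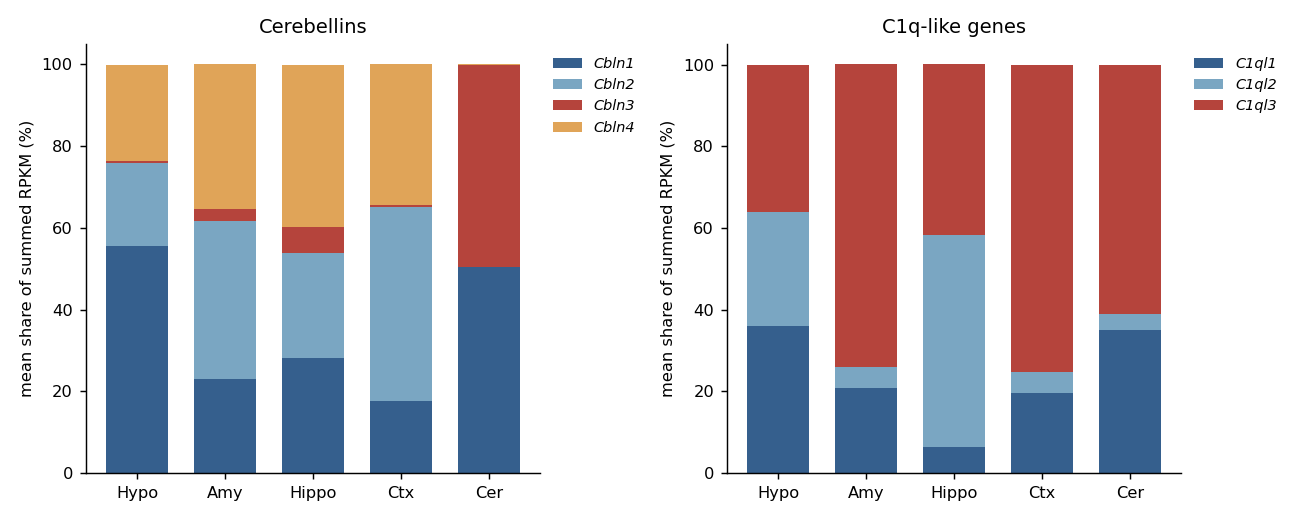
Mean share of each member in the summed RPKM of its family, in percent, for the 5 regions (cerebellins left, C1q-like genes right). Cbln1 and Cbln3 make up nearly the whole cerebellar sum (50.5% and 49.4%), and C1ql2 exceeds 50% of the C1q-like sum only in hippocampus (51.8%). Hippocampal shares include animal 413, and all shares depend on the exon length used.

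The 3 kept genes most like each member were taken by the same measure over the 77 libraries, so their regional likeness is that of the choice. For Cbln3 these were Gabra6, a GABA receptor subunit of granule cells (root mean square difference 0.398 on centred log2(CPM + 4)), the cadherin Fat2 (0.406) and the Purkinje cell gene Car8 (0.589). For Cbln1 they were Ppp1r17 (0.657), Patj (0.737) and the transcription factor Lhx1 (0.873), which had 60.8 CPM in cerebellum. For C1ql2 they were the desmosomal gene Dsp (0.727), itself 1 of the dentate markers, Olfml2b (0.73) and the semaphorin receptor Nrp1 (0.793). For C1ql3 they were the active zone gene Erc2 (0.246), Rnf165 (0.263) and Fam189a1 (0.285). For C1ql1 they were Serpine2 (0.213), Slc22a17 (0.217) and Rhbdd2 (0.219). After each other, Cbln2 was nearest to Lrrc55 (0.535) and Olfm2 (0.552), and Cbln4 to Pam (0.475) and Lrrc55 (0.487).

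Receptor levels were set beside those of the ligands. Grid1, a GluD receptor, ran from 91.8 ± 9.68 CPM in hypothalamus to 29.3 ± 2.66 in cerebellum (log2 difference 1.64, SE 0.0546, adjusted p = 7.51e-43), the same highest and lowest regions as Cbln4. Regional means of the neurexins ran from 297 to 574 CPM for Nrxn2 and from 200 to 321 CPM for Nrxn3, and Adgrb3 ran from 84.6 CPM in cortex to 126 CPM in cerebellum. Of both kainate receptor subunits listed, Grik4 was highest in hippocampus (64.1 ± 7.64 CPM), as was C1ql2, and Grik2 was highest in cerebellum (83.9 ± 10.4 CPM, against 54.1 ± 4.27 in hippocampus), where C1ql2 was lowest. Dcc ran from 40.2 ± 4.57 CPM in hypothalamus to 4.01 ± 1.16 in cerebellum. The remaining C1q-like gene, C1ql4, was not kept by the filter. It had a count in 15 of 16 hypothalamus libraries, 299 counts in all and up to 41 in 1 library (1.14 ± 0.567 CPM), while 6 counts fell in all 15 amygdala libraries, 10 in cerebellum, 2 in hippocampus and 1 in cortex.

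Whether a past litter went with a difference in these genes was tested in each region alone, with edgeR's quasi-likelihood test and Benjamini-Hochberg adjustment over the 13016 genes. In hypothalamus 22.6% of all genes passed (10.8% higher and 11.8% lower in primiparous females). Of the 7 members 1 passed, and 7 genes are too few to set this share apart from that of all genes. The member that passed was C1ql2. Its virgin libraries had a lowest value of 15.3, a median of 17.2 and a highest of 21 CPM, and its primiparous libraries had 19.1, 24.5 and 25.8 CPM. The groups overlapped at their ends, and 8 of 8 primiparous values lay above the virgin mean (17.6 ± 2.06 against 23.5 ± 2.41 CPM, n = 8 each). The log2 fold change was 0.39 (SE 0.0852, adjusted p = 0.00372), a fold of 1.31. It remained past the threshold in each of 16 fits without 1 library (0.37 to 0.44, adjusted p = 0.000773 to 0.01).

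The C1ql2 call depended on the model. With an offset that removes library-wise trends in gene length and base composition (the length and GC offset), the log2 fold change was 0.18 (SE 0.0787, adjusted p = 0.227). C1ql2 has a GC content of 63.3%, above that of 99.1% of the kept genes, whose median is 49.9%. With 1 fit of all 10 groups it was 0.40 (SE 0.161, adjusted p = 0.0732). Animal numbers had 3 digits in 7 of 8 primiparous and 2 of 8 virgin females and 4 digits in the others, and with the number of digits as a covariate the log2 fold change was 0.42 (SE 0.108, adjusted p = 0.13). Among animals with 3 digits, the 2 virgin libraries had 15.5 and 20.2 CPM and the 7 primiparous libraries 19.1 to 25.8. Among those with 4 digits, the 6 virgin libraries had 15.3 to 21 CPM and the 1 primiparous library 25.2. The direction of the means was thus the same within both series of numbers, of which the first holds only 2 virgin libraries and the second a single primiparous library. Dentate granule cell markers in hypothalamus summed to 21.8 to 30.2 CPM in virgin and 21.2 to 30.1 CPM in primiparous females, and 0 of 4 passed the test. Hippocampal pyramidal cell markers there summed to 142 to 177 CPM in virgin and 143 to 207 CPM in primiparous females, with medians of 149 and 172, and 1 of 4 was called higher. Of the choroid plexus markers 1 of 2 tested was higher, with median sums of 12.1 and 15.3 CPM, while oligodendrocytes and astrocytes each had 1 of 3 markers called lower. Purkinje cell markers had 1 of 5 higher and 1 of 5 lower, with median sums of 474 and 421 CPM. Granule cell markers had 1 of 5 lower, hypothalamic markers 1 of 6 lower and olfactory bulb markers 1 of 5 higher. The part of these markers in the C1ql2 values was not tested.

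**Figure D3:**
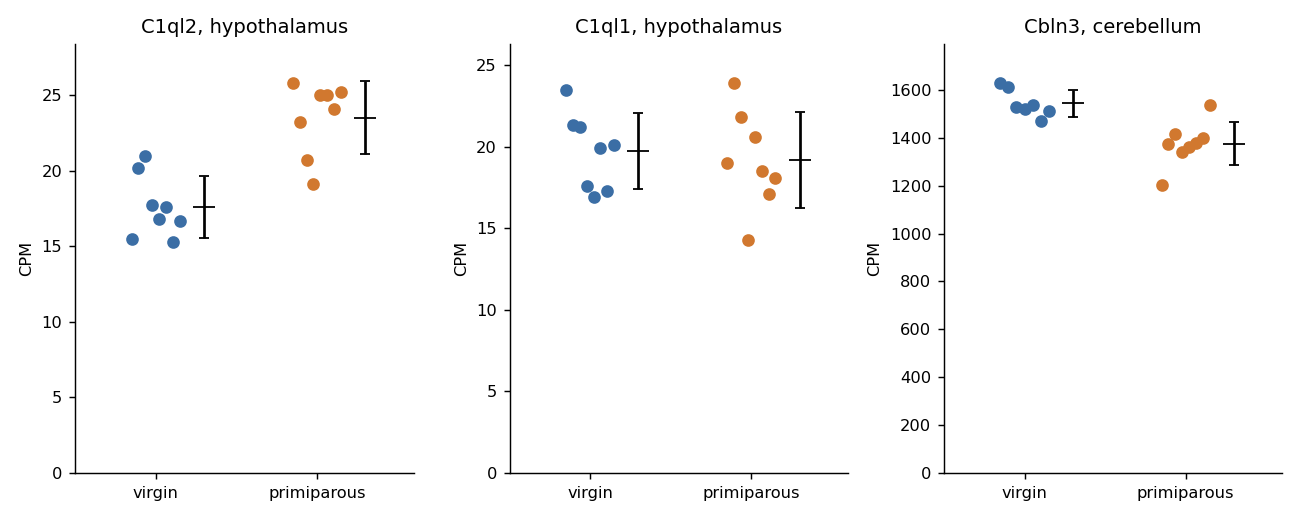
CPM of C1ql2 and C1ql1 in hypothalamus and of Cbln3 in cerebellum, each point 1 library, with mean and SD beside each group (linear axes from 0). C1ql2 is higher in primiparous females (17.6 against 23.5 CPM on average) with an overlap of both groups, C1ql1 overlaps throughout, and in cerebellum 1 primiparous library lies within the virgin range of Cbln3.

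The other 6 members did not pass in hypothalamus. Cbln1 was at 133 ± 7.34 CPM in virgin and 143 ± 13 CPM in primiparous females (log2 fold change 0.09, SE 0.0552, adjusted p = 0.261). C1ql3 had a virgin median of 35.2 and a primiparous median of 32.1 CPM (-0.15, SE 0.087, adjusted p = 0.199), and passed in 1 of 16 fits, that without virgin animal 409 (-0.21, adjusted p = 0.0376). C1ql1 had 19.7 ± 2.33 and 19.2 ± 2.95 CPM, with groups that overlapped over nearly their whole range (-0.07, SE 0.0964, adjusted p = 0.648). With the length and GC offset, C1ql1 and not C1ql2 was the 1 member past the threshold (-0.31, SE 0.0844, adjusted p = 0.0401), and the GC content of C1ql1 is 65.8%. The share of all genes given above belongs to the fit without the offset, and that with the offset is not given here. Cbln2, Cbln3 and Cbln4 had adjusted p-values of 0.648, 0.444 and 0.489.

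In cerebellum 0.707% of all genes passed (0.599% higher and 0.108% lower), and 0 of the 7 members did with edgeR. Under an unadjusted p of 0.05 lay 1 of the 7 members, beside 19.5% of all genes, and 7 genes are too few to set these shares apart. That member was Cbln3. Its virgin libraries ran from 1470 to 1629 CPM with a median of 1528, and its primiparous libraries from 1204 to 1535 CPM with a median of 1377. Of the 8 primiparous values 8 lay below the virgin mean, and only that of animal 4493 fell within the virgin range. The log2 fold change was -0.15 (SE 0.0456, adjusted p = 0.0856), with adjusted p = 0.0327 in DESeq2. With edgeR, Cbln3 passed in 1 of 15 fits without 1 library, that without animal 4493 (adjusted p = 0.0252). Without virgin animal 409 the adjusted p was 0.183. Among animals numbered with 3 digits, 2 virgin libraries had 1613 and 1629 CPM and 7 primiparous libraries 1204 to 1414, while with 4 digits 5 virgin libraries had 1470 to 1537 and the 1 primiparous library, animal 4493, had 1535. The direction of the means was thus the opposite in the second series, which holds a single primiparous library. Granule cell markers summed to 2610 to 3027 CPM in virgin and 2232 to 3118 CPM in primiparous cerebellum, with medians of 2871 and 2480, and 0 of 5 passed. In the same libraries the medians of some other marker sums were higher in primiparous females, at 9459 and 10796 CPM for Purkinje cells (0 of 5 passed), 4292 and 5389 CPM for oligodendrocytes (1 of 3 passed, higher) and 2112 and 2207 CPM for astrocytes (1 of 3 passed, higher). Choroid plexus medians were 36.1 and 72.9 CPM (0 of 2 tested passed). Lower medians included those of dentate granule cell (38 and 34.1 CPM), hippocampal pyramidal cell (107 and 102 CPM) and thalamic markers (203 and 193 CPM), with 0 of 4 passed in each. The part of these markers in the Cbln3 values was not tested. Cbln1, made by the same granule cells, had 946 ± 76 and 912 ± 64.1 CPM (-0.04, SE 0.0534, adjusted p = 0.705). C1ql1 (0.38, SE 0.19, adjusted p = 0.277) and C1ql3 (0.28, SE 0.151, adjusted p = 0.31) had higher means in primiparous females, with overlapping groups. For C1ql1 the overlap came from virgin animal 4491 (7.68 CPM), since the other 6 virgin libraries had 3.15 to 3.44 CPM and the lowest primiparous library 3.66. Without that library the log2 fold change of C1ql1 was 0.63 (SE 0.153, adjusted p = 0.059).

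Amygdala, hippocampus and cortex had 0 of 7 members past the threshold with edgeR, DESeq2 and limma-voom, beside 0% of all genes with edgeR. Under an unadjusted p of 0.05 these regions had 0, 1 and 0 members, beside 11.9%, 7.38% and 9.8% of all genes. The 1 was hippocampal Cbln3, for which virgin libraries had 0.896 to 3.96 CPM with a median of 1.21 and primiparous libraries 0.822 to 115 with a median of 2.45. The value of 115 CPM belonged to animal 413, and the other 7 primiparous libraries lay at or below 3.08 CPM. The log2 fold change of 3.34 (SE 1.26, adjusted p = 0.63) became 0.44 (SE 0.341, adjusted p = 0.706) without that library. That of Cbln1 went from 1.15 (SE 0.61, adjusted p = 0.729) to 0.15. C1ql2 in hippocampus had 107 ± 20.8 CPM in virgin and 103 ± 15.4 CPM in primiparous females (-0.05, SE 0.125, adjusted p = 0.96).

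In the library of animal 413, the excess of Cbln1 and Cbln3 was of like size relative to their cerebellar levels. Its excess over the median of the other 14 hippocampus libraries was 8.01% of the cerebellar mean for Cbln1 and 7.77% for Cbln3. The same measure gave 8.46% for Gabra6, 6.26% for Fat2, 6.05% for Neurod1 and 8.23% for Zic1 among granule cell markers, and 2.34% for Etv1. Among Purkinje cell markers it was 5.86% for Pcp2, 8.99% for Car8, 7.27% for Calb1, 7.32% for Pvalb and 7.71% for Itpr1. Cbln2 (7.66 CPM) and Cbln4 (10.1 CPM), which are low in cerebellum, lay within the range of the other hippocampus libraries. Of the 12 genes with high cerebellar levels, 11 thus had an excess between 5.86% and 8.99%.

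**Figure D4:**
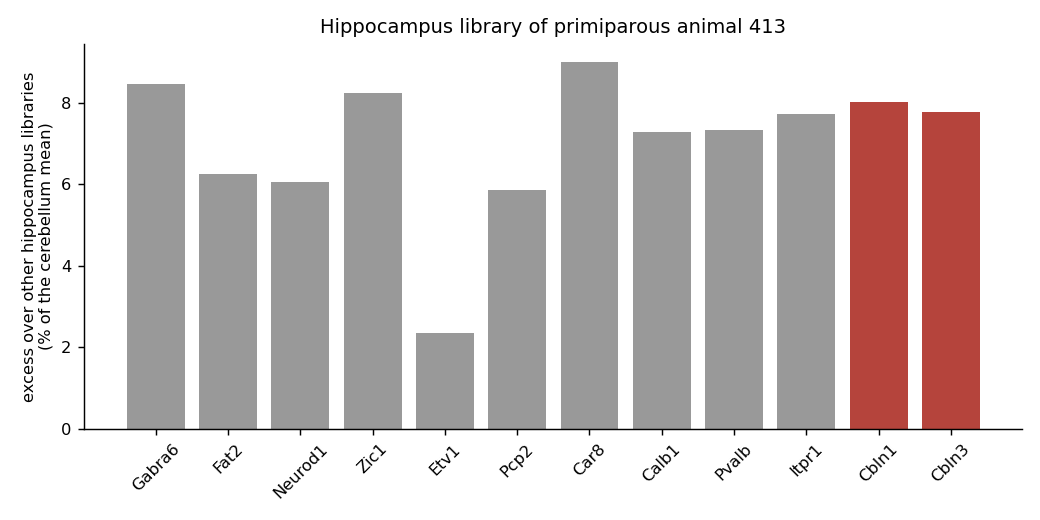
Excess of the hippocampus library of primiparous animal 413 over the median of the other 14 hippocampus libraries, as a percentage of each gene's mean CPM in cerebellum, for granule and Purkinje cell markers (grey) and for Cbln1 and Cbln3 (red). Cbln1 (8.01%) and Cbln3 (7.77%) stand at the height of the markers, with Etv1 (2.34%) the lowest.

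An interaction term then asked, for each of the 10 pairs of regions and 7 members, whether the effect of state was unequal in both regions. Of these 70 tests 1 passed, with p-values adjusted over the 13016 genes of each pair. The log2 fold change of C1ql2 in hypothalamus exceeded that in hippocampus by 0.43 (SE 0.146, adjusted p = 0.0398), where 17.2% of all genes passed. The corresponding shares were 18.2% for hypothalamus against amygdala, 15.5% against cerebellum and 0% against cortex. They were 1.11% for amygdala against cortex, 0.415% for amygdala against cerebellum, 0.169% for hippocampus against cerebellum, 0.00768% for cortex against cerebellum and 0% for the remaining pairs. With the animal as a replicate block it was 0.40 (SE 0.121, adjusted p = 0.0384), and without animal 413 in hippocampus 0.44 (SE 0.15, adjusted p = 0.0372). It missed the threshold with limma-voom (0.40, adjusted p = 0.109), with no filter (0.42, adjusted p = 0.0795), in 1 fit of all groups (0.44, adjusted p = 0.194) and with the block and the length and GC offset together (0.13, SE 0.126, adjusted p = 0.727). Against amygdala the difference was 0.28 (SE 0.264, adjusted p = 0.486), against cortex 0.31 (SE 0.24, adjusted p = 1) and against cerebellum 0.23 (SE 0.252, adjusted p = 0.57). A difference of C1ql2 between hypothalamus and these 3 regions was therefore not shown.

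**Figure D5:**
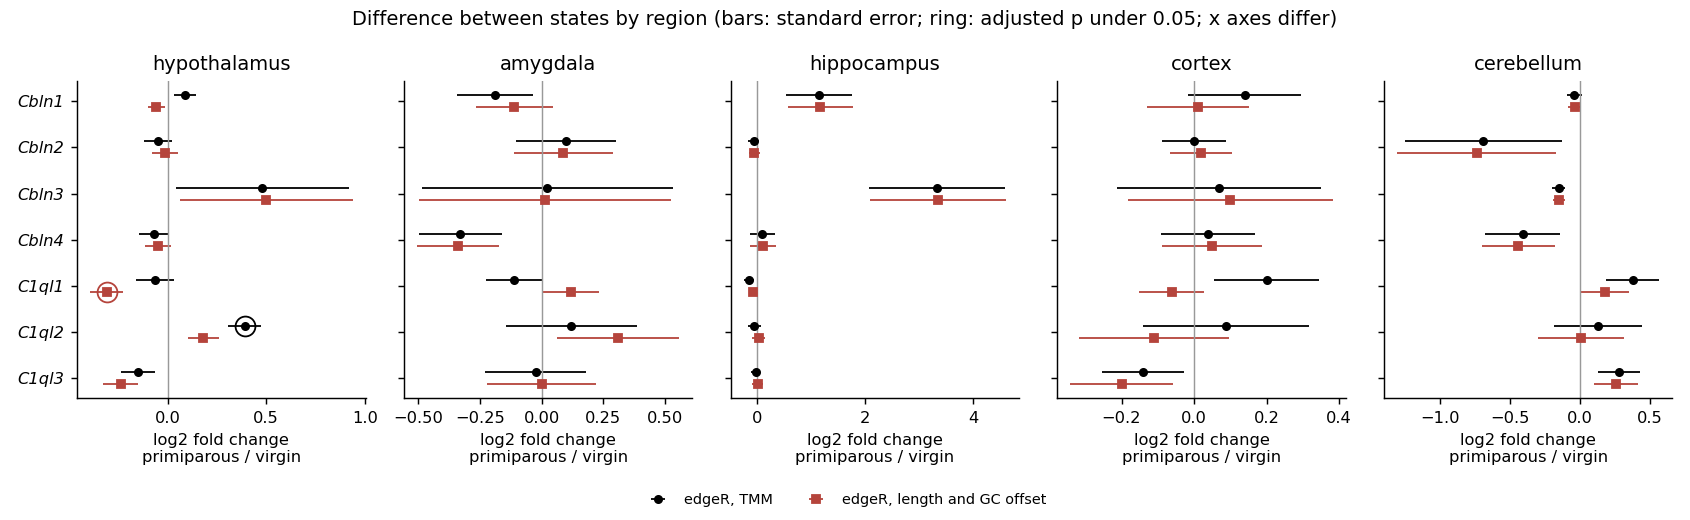
Log2 fold change of primiparous over virgin females for the 7 members in the 5 regions, with standard errors, from edgeR with TMM normalization (black circles) and with the length and GC offset (red squares). A ring marks an adjusted p under 0.05. Only C1ql2 in hypothalamus (0.39) has a ring without the offset, and only C1ql1 in hypothalamus (-0.31) with it. The x axes differ between regions.

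A list of 31 genes, of which 30 were tested, was read beside the ligands. It held receptors, other synaptic organisers and 4 other C1q-domain genes (C1qa, C1qb, C1qc and C1ql4). In hypothalamus 5 were higher and 4 lower in primiparous females, against 10.8% and 11.8% of all genes, and the median log2 fold change over the list was -0.07. Higher were Nrxn2 (0.28, SE 0.0631, adjusted p = 0.00468), the BAI receptors Adgrb1 (0.23, SE 0.0606, adjusted p = 0.00966) and Adgrb2 (0.24, SE 0.0593, adjusted p = 0.00732), the neuroligin of inhibitory synapses Nlgn2 (0.26, SE 0.0572, adjusted p = 0.00379) and the receptor phosphatase Ptprs (0.23, SE 0.05, adjusted p = 0.00379). Lower were the kainate receptor subunit Grik2 (-0.26, SE 0.0614, adjusted p = 0.00529), Lrrtm2 (-0.37, SE 0.107, adjusted p = 0.019), Dcc (-0.21, SE 0.0701, adjusted p = 0.0347) and Nlgn1 (-0.19, SE 0.0697, adjusted p = 0.0461). The 5 higher genes had a GC content of 60.3% to 63.6% and the 4 lower genes 37.9% to 44.3%. In the fit without offset or covariate, 17 of the 30 (56.7%) lay under an unadjusted p of 0.05, beside 37.1% of all genes. No test of this difference was made. With the length and GC offset 0 of 30 passed (3 under an unadjusted p of 0.05), and with the animal number series as a covariate 0 of 30 (5 under an unadjusted p of 0.05). The share of all genes passing in these 2 fits is not given here, so the losses cannot be set against it. The log2 fold changes of the 5 higher genes were 0.01 to 0.07 with the offset and 0.15 to 0.18 with the covariate, and those of the 4 lower genes -0.09 to 0.06 with the offset and -0.24 to -0.11 with the covariate. Among receptors of cerebellins and C1q-like proteins, Nrxn2, Dcc and Grik2 thus passed in the fit without offset or covariate. In that fit Grid1 (0.13, SE 0.0623, adjusted p = 0.14) and Adgrb3 (-0.10, SE 0.0652, adjusted p = 0.285) did not pass.

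In cerebellum 2 of the 30 passed, both higher, beside 0.599% of all genes, and neither was a receptor. Under an unadjusted p of 0.05 the list had 20% and all genes 19.5%. The 2 that passed were C1qa (0.42, SE 0.092, adjusted p = 0.0363) and C1qb (0.62, SE 0.114, adjusted p = 0.0175), which encode chains of the complement protein C1q that gave the family its name and are made by microglia. The third chain, C1qc, had a log2 fold change of 0.25 (SE 0.11, adjusted p = 0.219). The 3 microglial markers summed to 24.9 to 33.4 CPM in virgin and 30.6 to 43.6 CPM in primiparous cerebellum, with medians of 31.2 and 37.8, and 0 of 3 passed. The part of these and of the oligodendrocyte and astrocyte markers above in the C1qa and C1qb values was not tested. Neither gene passed with the animal number series as a covariate (adjusted p = 0.794 and 0.709), where the log2 fold changes were 0.34 and 0.48. With the length and GC offset C1qb passed (0.52, adjusted p = 0.0161), C1qa did not (0.30, adjusted p = 0.0538), and the postsynaptic organiser Slitrk4 was called lower (-0.26, adjusted p = 0.0207), having missed the threshold without the offset (-0.22, adjusted p = 0.0988). In amygdala, hippocampus and cortex 0 of 30 passed with edgeR, DESeq2 and limma-voom, with 7, 6 and 10 under an unadjusted p of 0.05 by edgeR. These are 23.3%, 20% and 33.3% of the list, beside 11.9%, 7.38% and 9.8% of all genes tested, and no test of this difference was made.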

How the data were processed

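From polyadenylated RNA the authors made NEBNext Ultra libraries, sequenced single-end reads, aligned them with HISAT2 to mm10 and counted reads that map once with featureCounts. The strand setting is not given in the sources used here. The deposited table holds whole-number counts per gene, not normalized. The authors also deposited log2 values, which match log2 of size-factor-scaled counts plus 4 and lie away from log2(CPM + 4) by a median of 3.94. They were used only for gene symbols and to check the filter (at least 5 CPM in at least 8 libraries), which gave the same 13016 genes. Libraries were grouped by the labels' tissue and reproductive state. The 3 labelled libraries with no column in the table were not analysed here, and 0 columns of per-sample values were left unused. CPM used the total count of a library.

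Counts were fitted with edgeR 4.0.16 (TMM, robust quasi-likelihood F-test) in R 4.3.3, each region alone for state, 4 groups for interactions and all 10 groups for regions, with Benjamini-Hochberg adjustment over all kept genes and a threshold of 0.05. Alternatives were limma 3.58.1 (voom), DESeq2 1.42.0, RLE factors, no filter, 1 fit of all groups, the animal number series as a covariate, a length and GC offset (values for 97% of kept genes) and leaving out each library. The scripts were tested on simulated data. Exon length, GC content and positions came from GENCODE M21 on GRCm38, promoters from RefSeq, which held entries for Cbln3, Cbln4, C1ql2 and C1ql3 among those used. Python 3.11.15 with pandas 2.3.3 and matplotlib 3.10.9 made tables and plots.

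Every region was dissected from each animal, so animal numbers pair the libraries. For the 10 region pairs, deviations from group means had median correlations between -0.0132 and 0.104 within an animal and between -0.0205 and 0.00685 otherwise. Each library came from 1 mouse, so the spread between replicates holds animal, dissection and library preparation together, and depth limits precision only for genes with few counts. Genes named were every member, a set of receptors (of which Grid1, Nrxn2, Nrxn3 and Adgrb3 are given and the others are not reported here), the list genes past the threshold (at most 8 per region by p, with Nlgn1 as the ninth in hypothalamus), and the 3 most like each member. C1ql4, C1qc, Grik4, cerebellar Slitrk4 and the regional levels of Dcc and Grik2 were added after their values were seen. Members and lists were chosen with earlier results of these data known.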

Additional observations from a re-analysis of the deposited data

Results flagged for a closer look

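Of 70 groups (7 members, 5 regions, 2 states), 11 had a highest library set far from the rest by a test of gaps, which chance alone does in about 1 of 20 groups. In hippocampus, primiparous animal 413 had 83.4 CPM of Cbln1 (next 13.6) and 115 CPM of Cbln3 (next 3.08), beside the cerebellar markers described with that library. Virgin animal 409 had 11.9 CPM of Cbln2 there (next 8.24), virgin animal 4487 had 3.96 CPM of Cbln3 (next 1.81) and primiparous animal 425 had 11.4 CPM of C1ql1 (next 9.32). The hippocampus library of animal 4487 also had the highest thalamic marker sum (165 CPM, against 51.5 to 73.7 in the others). Its oligodendrocyte (5943 CPM, against 3560 to 5731) and striatal sums (75.3 CPM, against 52.2 to 74.4) were the highest too. Among the 5 regions the thalamic list was highest in cerebellum (198 CPM, next hypothalamus at 88.1), so its sum does not stand for thalamus alone. The library of animal 425 had the highest choroid plexus sum (3802 CPM, against 52.6 to 3411). That of animal 409 had the lowest thalamic (51.5 CPM, against 60.7 to 165) and hypothalamic sums (1.92 CPM, against 2.05 to 16.1).

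In amygdala, virgin animal 4486 had 190 CPM of C1ql3 (next 114) and 5.2 CPM of Cbln3 (next 2.19). Its cerebellar granule cell marker sum was 106 CPM, against 61.6 to 86.7 in the other 14. Its amygdala marker sum was 107 CPM, against 53.5 to 104 in the other 14, and its oligodendrocyte sum the lowest (1413 CPM, against 1712 to 3516). Virgin animal 405 had 22.9 CPM of Cbln2 (next 16.4), with the highest olfactory bulb (37.9 CPM, against 22 to 35.3) and hippocampal pyramidal cell marker sums (377 CPM, against 259 to 365), and primiparous animal 418 had 10.9 CPM of C1ql2 (next 6.28), with the lowest hypothalamic marker sum (5.1 CPM, against 8.02 to 77.2). In cerebellum, virgin animal 4491 had 7.68 CPM of C1ql1 (next 3.44) and 3.74 CPM of Cbln4 (next 1.66), with a Purkinje cell marker sum of 8847 CPM, below the 9269 to 11281 of the others. The part of these markers was not tested.

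The state difference of C1ql2 in hypothalamus exceeded that in hippocampus by 0.43 on the log2 scale, by the interaction test given above.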

How the results depend on the processing

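In hypothalamus the 1 member called became 0 with 1 fit of all groups and 0 with the animal number series as a covariate, and ranged from 1 to 2 without single libraries (2 without virgin animal 409). With the length and GC offset the count stayed at 1, but the member called was C1ql1 in place of C1ql2. The 9 partner genes called became 0 with that covariate and 0 with the length and GC offset, and ranged from 7 to 18 (15 without virgin animal 409, 18 without primiparous animal 418). In amygdala 1 partner gene, and in hippocampus 1 member (Cbln3, 3.35, adjusted p = 0.00904), was called in 1 fit of all groups, against 0. That fit holds the hippocampus library of animal 413 (115 CPM of Cbln3). In the fit of hippocampus alone, the log2 fold change of Cbln3 was 0.44 without that library. Without single libraries the counts in amygdala, hippocampus and cortex ranged from 0 to 0. In cerebellum DESeq2 called 1 member, against 0, with a range of 0 to 1 without single libraries. The 2 partner genes there became 1 with limma-voom and 0 with the covariate, with a range of 0 (without virgin animal 4486) to 4 (without primiparous animal 4493). Of neighbouring regions 20 differed and 19 without animal 413 in hippocampus, a setting chosen after seeing the data, and 4 members stayed highest in 1 region. The 1 interaction called became 0 with limma-voom, 0 with no filter and 0 with the animal as a replicate block and the length and GC offset. In 1 fit of all groups 1 was called too, but another, Cbln3 in hippocampus against cerebellum (3.51, adjusted p = 0.0486), which with both regions alone was 3.52 (adjusted p = 0.143) and 0.63 (adjusted p = 0.32) without animal 413. With the replicate block alone the count was 1, and among the 28 neighbouring steps the block changed only the call of Cbln3 between hippocampus and amygdala. The cause of these changes was not tested. With the length and GC offset the sign turned for Grik2 (-0.26 to 0.02) and Nlgn1 (-0.19 to 0.06) of the 9 partner genes called in hypothalamus, while the called member C1ql2 kept its direction in every setting run. In cerebellum that offset exchanged C1qa for Slitrk4 among the 2 partner genes called. Levels of Cbln2 and C1ql2 in cerebellum, and of Cbln3 outside it, rest on few counts.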
